A study of Rattus norvegicus with 4 samples.

Results

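Exonic circular RNAs (circRNAs) that spanned under 2 kb of the rat genome were examined in sciatic nerve after crush injury. They were chosen as the listed circRNAs of class exon whose deposited genomic length, called span here, was below 2000 bases. The rule used no read count. It found 586 circRNAs from 544 host genes, 15.7% of the 3731 exonic circRNAs and 11.9% of all 4942 listed. Span is end minus start on the genome build Rnor_6.0, so it includes introns and is an upper limit on the length of the circle when exons alone are kept. Coordinates are given as deposited, and the sources used here do not state whether they count from 0 or 1.

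The animals were Sprague-Dawley rats at postnatal week 6, and total RNA of their sciatic nerves gave 2 libraries after crush and 2 after sham surgery. In the crush group a 3 mm length of nerve was compressed 2 times with a hemostatic forceps, for 15 s each and with an interval of 3 s. In the sham group the nerve was exposed only. Tissue was taken 24 h after surgery, and for the crush group it held the crushed 3 mm with 1 mm of nerve at both ends. No genotype other than the strain and no drug group is named, both groups had the same surgeon, and the labels do not say whether a library came from 1 animal or a pool.

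A circRNA forms when a downstream splice site is joined back to an upstream one, a step called back-splicing, which leaves a closed loop without free ends. Such loops resist exonucleases and are often more stable than the linear transcript of the same gene. A short span usually means that 1 exon, or a few neighbouring exons with short introns, lies between the joined sites. After a crush, Schwann cells dedifferentiate and myeloid cells enter the nerve within the first day. A circRNA is counted by the reads that cross its back-splice junction, so its count does not grow with its length.

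The libraries held 8250 and 9027 junction reads in crushed nerve and 9018 and 8726 in sham nerve, over all circRNAs. The smallest count above 0 in the files was 2, so a listed 0 can hide reads. Of 125 cases over all circRNAs with at least 20 reads in a library, 18 were listed at 0 in the other library of the group, so a 0 may stand for a circRNA that was missed rather than for few reads. In bulk tissue, fewer cells of a type and less RNA per cell cannot be told apart. Junction reads of 20 leukocyte marker genes with any circRNA summed to 98 and 109 after crush and to 3 and 5 after sham operation. Those of 6 skeletal muscle marker genes summed to 76 and 84 in crushed nerve and 209 and 241 in sham nerve, although nerve was the labelled tissue, and those of 10 Schwann cell and myelin genes to 49, 52, 42 and 73 in the order crush replicates 1 and 2, sham replicates 1 and 2. The part of these lists in the results below was not tested beyond the values given beside them.

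Among the 586 short circRNAs, spans ran from 141 to 1999 bases, with a median of 936 and quartiles of 545 and 1459. Spans under 1000 bases made up 316 of them. The shortest came from Kdm7a, a histone demethylase gene, at 141 bases, followed by Sdcbp at 161 and Adamts20, a metalloprotease gene, at 167. The longest came from Slc25a37, the gene of the mitochondrial iron importer mitoferrin-1, at 1999 bases, from Zwilch, a kinetochore gene, at 1995 and from Kdm5a, another histone demethylase gene, at 1994. Zwilch had 2 and 10 junction reads in crushed nerve and 0 and 4 in sham nerve, and Slc25a37 had 7 reads in crush replicate 2 alone. Just outside the limit stood Brwd3 at 2011 bases, with 3 reads in crush replicate 2 alone, and Samhd1 at 2013 bases, with 2 reads in each crush library and 0 in both sham libraries. Strands were balanced, with 289 on the plus and 297 on the minus strand.

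Most host genes gave a single short circRNA. Of the 544 hosts, 511 had 1 member, 26 had 2, 5 had 3 and 2 had 4. The hosts with 4 were Polr2a, which encodes the largest subunit of RNA polymerase II, and Ascc3, a helicase gene. All 8 circRNAs of that pair were sparse, with 2 to 4 reads, each in a single library, and both genes had them in crush libraries alone. Lrp6, a Wnt co-receptor gene, gave 3 whose reads summed to 5 and 8 in crushed nerve and 13 and 19 in sham nerve. Crebbp, the gene of a histone acetyltransferase, also gave 3, with sums of 6 and 13 in crushed nerve and 2 and 2 in sham nerve. The 3 of Sdcbp summed to 15 and 14 in crushed nerve and 0 in both sham libraries.

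Hosts and splice sites shared with other circRNAs were counted in each class of span. For 291 of the 586 (49.7%) no other circRNA of the host was listed, against 32.5% of the 2908 with spans of 2 to under 50 kb and 16.5% of the 237 with spans of 50 kb or more. An end was shared with another listed circRNA by 152 (25.9%), against 45.4% and 68.4% in the longer classes. These shares describe the catalogue and carry no test, since circRNAs of 1 host are not independent. A total of 300 hosts were listed with short circRNAs alone. In the other 244, the short ones held a median of 42.9% of the host's junction reads, and over 50% in 78 hosts.

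Where a short and a longer exonic circRNA used the same splice site, either could be the more abundant. Of 124 short circRNAs sharing an end with a longer one, 43 had more reads than the longer forms together over the 4 libraries, 18 had as many and 63 had fewer. The circRNA of Ttc3, a ubiquitin ligase gene, had 425 reads against 78 for the 2 longer forms. That of Emilin2, which encodes an extracellular matrix glycoprotein, had 136 against 2. The reverse held for Gigyf2, the gene of a translational repressor, with 23 reads in the short and 177 in the longer forms. These 3 genes were chosen after their values were seen.

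Short circRNAs from 1 host were mostly apart from each other. Of 53 pairs from the same gene, 42 did not overlap, 9 shared an end and 2 overlapped without sharing one. The 2 circRNAs of Hnrnph1, which encodes a splicing regulator, ended at the same base on chromosome 10 (35876397) and started 21 bases apart (35876013 and 35876034). The form of 384 bases had 7 and 8 reads in crushed nerve and 6 and 13 in sham nerve. The form of 363 bases had 11 and 9 reads in crushed nerve and 4 and 4 in sham nerve, so its groups did not overlap while those of the longer form did. Neither passed the edgeR test, with adjusted p of 0.938 for the longer and 0.187 for the shorter form, and the difference between the forms was not tested. The pair was named after its values were seen.

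Detection was sparse. Of the 586, 416 (71.0%) were listed in 1 library, 95 in 2, 35 in 3 and 40 (6.83%) in all 4. The shares in 1 and in all 4 libraries were 69.9% and 7.05% at 2 to under 50 kb, close to those of the short class, and 79.7% and 3.80% at 50 kb or more. Of 19 cases in which a short circRNA had at least 20 reads in a library, 2 were listed at 0 in the other library of the group. Both were in sham replicate 1, for Irak3 and Pwwp2a.

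More short circRNAs were listed after crush than after sham operation, while their summed reads overlapped between the groups. The crush libraries listed 243 and 260 of them and the sham libraries 173 and 195. The groups did not overlap, and the means of 251.5 ± 12.0 and 184 ± 15.6 (SD, n = 2 each) differed by 67.5 (exact two-sided permutation p = 0.333, the smallest that 2 against 2 libraries allow). After each library was thinned to the depth of the shallowest, the numbers were 243, 238, 165 and 182. Without the hosts of the leukocyte list they were 239, 256, 173 and 195, where that list had only 5 short circRNAs to remove. Over all circRNAs the crush libraries also listed more, 1785 and 2022 against 1704 and 1711 in sham nerve.

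The extra short circRNAs were low in reads. Those with exactly 2 reads numbered 97 and 114 in crushed nerve and 64 and 83 in sham nerve. Over all circRNAs, those with exactly 2 reads also numbered more after crush, 781 and 912 against 664 and 737. Short ones with at least 5 reads numbered 56 and 67 in crushed nerve and 58 and 46 in sham nerve, and here the groups overlapped. Those listed in a single library of the 4 numbered 132 and 138 in crushed nerve and 64 and 82 in sham nerve, and they held 29.2% and 27.1% of the short circRNAs' reads after crush against 14.3% and 15.7%. As a share of the exonic circRNAs listed in the same library, the short ones made up 17.9% and 17.0% after crush and 12.9% and 14.3% after sham operation. Within the short class, spans under 1000 bases differed more in number than those of 1000 bases or more. Under 1000 bases, 149 and 139 were listed in crushed nerve and 90 and 101 in sham nerve, without overlap. From 1000 to under 2000 bases the numbers were 94 and 121 against 83 and 94, which met at 94.

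Across all exonic circRNAs, the number listed after crush relative to sham operation was smaller at longer spans. The ratio of the group means was 1.58 under 0.5 kb, 1.47 from 0.5 to 1 kb and 1.21 from 1 to 2 kb. It was 1.22 from 2 to 5 kb, 1.14 from 5 to 10 kb, 0.99 from 10 to 20 kb, 0.88 from 20 to 50 kb and 0.67 at 50 kb or more. The short class thus stood at 1 end of a gradient, with no break at its limit of 2 kb. At 50 kb or more, 60 and 67 were listed in crushed nerve and 99 and 90 in sham nerve, the opposite order to that of the short ones. The bins hold different circRNAs of the same 4 libraries, so their order carries no test of its own.

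**Figure D1:**
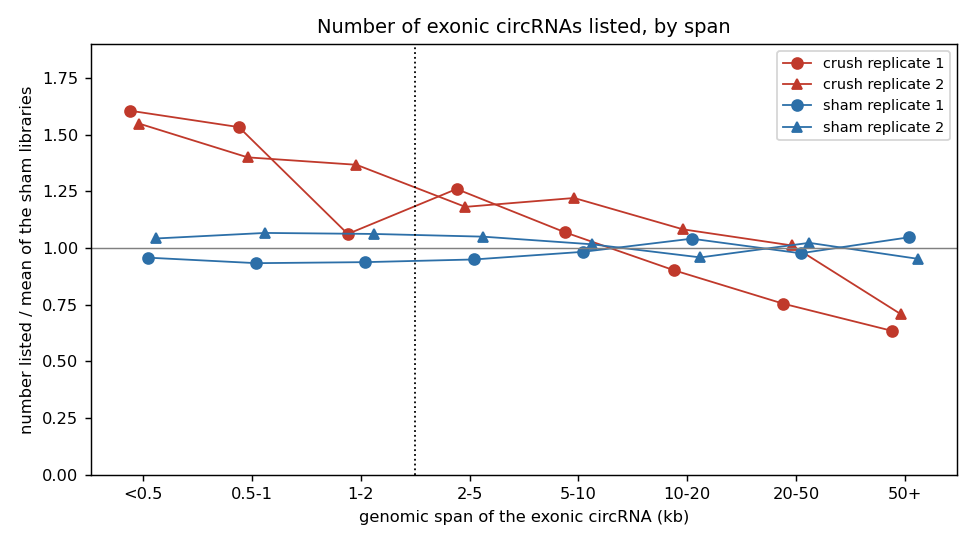
Number of exonic circRNAs listed in each library, divided by the mean of the sham libraries in the same bin (vertical axis), against genomic span in 8 bins in kb (horizontal axis). Red marks are crush libraries, blue marks are sham libraries, circles are replicate 1, triangles are replicate 2, and the dotted line is the limit of 2 kb; the crush marks lie highest under 1 kb and lowest at 50 kb or more, where the ratio of the group means was 0.67.

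The short circRNAs together held 1230 and 1353 junction reads in crushed nerve and 1213 and 1348 in sham nerve. Their share of all junction reads was 14.9% in crush replicate 1 (95% Clopper-Pearson interval 14.1% to 15.7%) and 15.0% in crush replicate 2 (14.3% to 15.7%). In sham replicates 1 and 2 it was 13.5% (12.8% to 14.2%) and 15.4% (14.7% to 16.2%). The intervals cover counting error only. The crush shares lay between the sham shares, and the difference of 0.499 percentage points had an exact permutation p of 1. In SRPBM, the deposited signal that scales junction reads to the library, the sums were 89.2 and 80.9 after crush and 88.4 and 106 after sham operation, also overlapping.

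The make-up of these reads differed between the groups more than their sum. A single circRNA of Nfix, the gene of a nuclear factor I transcription factor, held 5.45% and 7.83% of the short circRNAs' reads after crush and 21.8% and 25.2% after sham operation. That of Ttc3 held 3.82% and 4.51% after crush against 14.8% and 10.2%. The 10 most abundant in each library held 30.4% and 32.5% after crush and 48.4% and 50.7% after sham operation, and none of these 3 measures overlapped between groups (exact permutation p = 0.333 for Nfix and for the 10 most abundant, the smallest possible). At 2 to under 50 kb the 10 most abundant also held less after crush, 9.72% and 9.49% against 11.8% and 11.6%. Over all circRNAs they held 8.40% and 8.16% after crush against 15.6% and 15.6%. At 50 kb or more the order was the opposite, 42.8% and 37.8% after crush against 29.2% and 31.1%. With Nfix left out, the other short circRNAs held 1163 and 1247 reads in crushed nerve and 948 and 1008 in sham nerve. Their share of all junction reads was then 14.1% and 13.8% after crush against 10.5% and 11.6%, without overlap (exact permutation p = 0.333). Nfix was left out after its values were seen. It had more reads in sham nerve, so leaving it out moves the difference toward crush by construction, and this p is no support. In SRPBM the sums without Nfix were 84.3 and 74.6 after crush and 69.1 and 79.3 after sham operation, which overlapped.

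**Figure D2:**
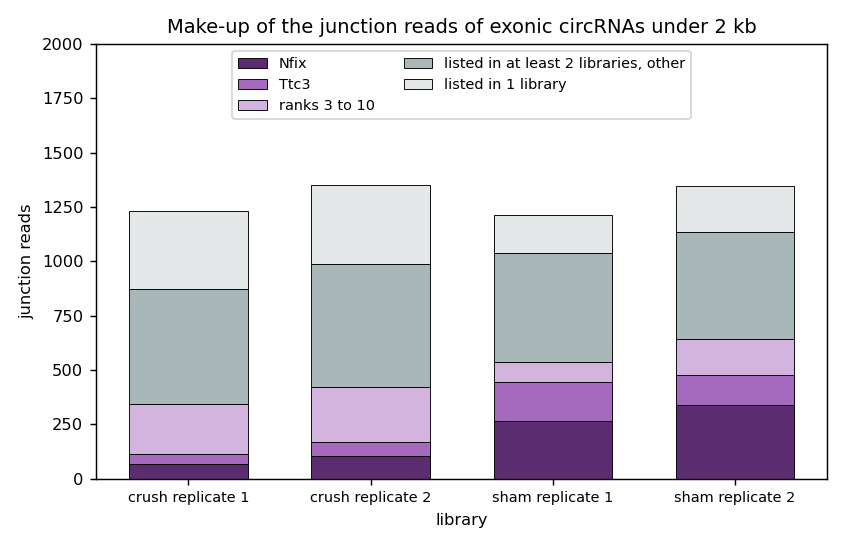
Junction reads of the exonic circRNAs under 2 kb in each library (stacked bars from 0), split into Nfix, Ttc3, the members ranked 3 to 10 by mean abundance, the others listed in at least 2 libraries and the others listed in 1. Total heights are close, from 1213 to 1353 reads, while Nfix takes 265 and 340 reads in the sham and 67 and 106 in the crush libraries.

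Per listed circRNA, the short class had more reads than the longer exonic classes in each library. Its mean was 5.06 and 5.20 reads in crushed nerve and 7.01 and 6.91 in sham nerve, against 4.50, 4.31, 4.84 and 4.58 at 2 to under 50 kb. The mean difference was 1.49 reads, higher in 4 of 4 libraries (exact paired permutation p = 0.125 over libraries, the smallest possible). Without Nfix it was 0.524 reads, again higher in 4 of 4 (p = 0.125, exact). Against spans of 50 kb or more the differences were 2.38 and, without Nfix, 1.41 reads, both higher in 4 of 4 libraries (exact paired permutation p = 0.125). The median was 3 reads in all 4 libraries for both the short class and that of 2 to under 50 kb, and the share with at least 5 reads was higher in the short class in only 2 of 4 libraries (exact paired permutation p = 0.5).

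Most of the short circRNAs had too few reads for a test. With at least 5 reads required in at least 2 libraries, 56 of the 586 were tested and 530 were not, and the 56 are no sample of the rest. edgeR's quasi-likelihood test with Benjamini-Hochberg adjustment over all 428 circRNAs tested called 5 of the 56 higher after crush and 1 lower. Over all 428, 7.48% were called higher and 4.44% lower, so the counts among the short ones are close to the background. The fitted log2 change was above 0 for 33 and below 0 for 23, with a median of 0.21, beside 0.03 over all 428. When library totals implied by SRPBM replaced TMM scaling, 5 were called higher and 4 lower, and the median over all 428 moved from 0.03 to -0.37 and that over the 56 from 0.21 to -0.15. At an unadjusted p under 0.05, 18 of the 56 passed, beside 27.8% of all 428. By span, 1 of 13 under 500 bases, 1 of 21 from 500 to under 1000 and 1 of 9 from 1000 to under 1500 rose, and from 1500 to under 2000 bases 2 of 13 rose and 1 fell.

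**Figure D3:**
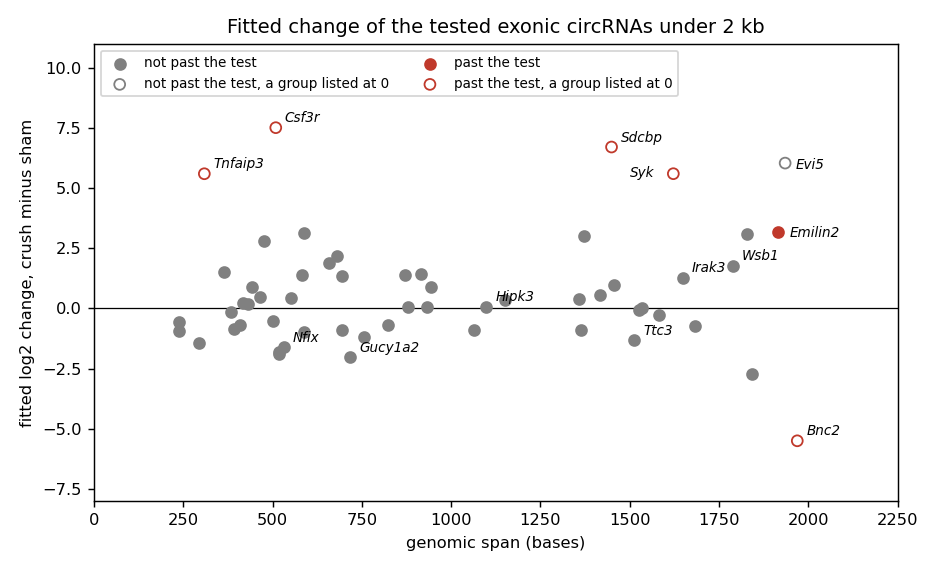
Fitted log2 change, crush minus sham (vertical axis), of the 56 tested exonic circRNAs under 2 kb against genomic span in bases (horizontal axis). Red marks passed the edgeR test, grey marks did not, and open marks had a group listed at 0, where the fitted value depends on a prior count; 5 of the 6 red marks are open, and Emilin2, with a log2 change of 3.19, is the filled one.

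The clearest rise was that of the Emilin2 circRNA (minus strand of chromosome 9, 119615345 to 119617261, 1916 bases). EMILIN2 is a glycoprotein of the extracellular matrix associated with elastic fibres. Its junction had 58 and 63 reads in crushed nerve and 6 and 9 in sham nerve, so both crush libraries were far above both sham libraries. In SRPBM the means were 3.99 ± 0.310 and 0.573 ± 0.191 (SD, n = 2 each). The log2 change was 3.19 ± 0.45 (SE; edgeR adjusted p = 0.0454). It passed the test when any 1 library was left out, with adjusted p from edgeR between 7.65e-05 and 0.0175. It did not pass by DESeq2's Wald test (adjusted p = 0.0781), with at least 2 reads required (0.135 by edgeR) or with exonic circRNAs alone in the fit (0.0622 by edgeR).

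For the other 4 that rose, both sham libraries stood at 0, so their fold changes are lower bounds set by a floor of 3 reads per library, taken in SRPBM. The bounds take the mean of the group with reads as observed, so its counting error is not covered. They do not hold if the caller missed a circRNA that was present. All 4 passed the read filter through the crush libraries alone. The circRNA of Csf3r (chromosome 5, 144038462 to 144038971, 509 bases), the receptor of granulocyte colony-stimulating factor and a marker of neutrophils, had 28 and 14 reads in crushed nerve, an increase of at least 6.31-fold (edgeR adjusted p = 0.0454). The circRNA of Sdcbp (chromosome 5, 19490935 to 19492384, 1449 bases), whose product syntenin-1 is a PDZ scaffold that takes part in exosome formation, had 13 and 11 reads in crushed nerve, an increase of at least 3.52-fold (edgeR adjusted p = 0.0490). Each was present in both crush libraries and listed in neither sham library.

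The circRNA of Syk (chromosome 17, 12653918 to 12655540, 1622 bases), the tyrosine kinase of immune receptors, had 6 and 5 reads in crushed nerve, an increase of at least 1.61-fold. The circRNA of Tnfaip3 (chromosome 1, 14412402 to 14412711, 309 bases), which encodes the ubiquitin-editing enzyme A20 that limits NF-kappa B signalling, had 5 and 6 reads in crushed nerve, an increase of at least 1.59-fold. Both had an edgeR adjusted p of 0.0454, and both lost the call without sham replicate 2 (edgeR adjusted p = 0.0788) and kept it without sham replicate 1 (0.0348). With either crush library left out, none of the 4 could be tested, since only 1 library with reads was left. Csf3r and Syk are in the leukocyte list, whose short circRNAs had 40 and 26 reads in crushed nerve and 0 in both sham libraries.

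The circRNA that fell came from Bnc2 (chromosome 5, 102432516 to 102434485, 1969 bases), the gene of the zinc finger protein basonuclin-2. It was listed at 0 in both crush libraries and had 7 and 5 reads after sham operation. By the same kind of bound it was at least 2.28-fold lower after crush (edgeR adjusted p = 0.0454). It passed the read filter through the sham libraries alone. The call was lost when crush replicate 1 (edgeR adjusted p = 0.0726) or crush replicate 2 (0.0624) was left out, and without either sham library the circRNA could not be tested. It was the only circRNA listed for that gene.

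The 2 most abundant short circRNAs, of Nfix and Ttc3, were lower after crush without passing the test. Of the 10 most abundant, Gucy1a2 was the only other with both crush libraries below both sham libraries. The Nfix circRNA (minus strand of chromosome 19, 25886356 to 25886887, 531 bases) had 67 and 106 reads in crushed nerve and 265 and 340 in sham nerve, with SRPBM means of 5.60 ± 1.05 and 23.0 ± 5.26 (SD, n = 2 each). Its groups were wide apart, yet the log2 change of -1.60 ± 0.39 had an edgeR adjusted p of 0.0615. Without crush replicate 2 that p was 0.00234 and without sham replicate 1 it was 0.0333, while without crush replicate 1 or sham replicate 2 it stayed above 0.05 (0.0726 and 0.0788). The Ttc3 circRNA (chromosome 11, 34612627 to 34614139, 1512 bases) had 47 and 61 reads in crushed nerve and 179 and 138 in sham nerve, a log2 change of -1.33 ± 0.33 (edgeR adjusted p = 0.0638). Its log2 change ran from -1.57 to -1.12 with a library left out, and it passed the threshold only without sham replicate 2.

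The Gucy1a2 circRNA (chromosome 8, 508994 to 509712, 718 bases), from the gene of a subunit of the nitric oxide receptor guanylate cyclase, had 4 and 6 reads in crushed nerve and 30 and 19 in sham nerve. Its log2 change was -2.04 ± 0.49 (edgeR adjusted p = 0.0615, and 0.00562 without sham replicate 2). Samd4a, which encodes an RNA-binding translational repressor of the Smaug family, had 7 and 3 reads in crushed nerve and 16 and 28 in sham nerve (edgeR adjusted p = 0.136, and 0.00682 without sham replicate 1). Disp1, whose product releases Hedgehog ligands from cells, had 4 and 6 reads in crushed nerve and 12 and 29 in sham nerve (edgeR adjusted p = 0.159, and 0.00543 without sham replicate 1). In all 3 the crush libraries lay below the sham libraries. With a library left out, each passed the threshold in the run named here alone, and not in the others. Under SRPBM totals, Nfix, Ttc3 and Gucy1a2 were past the threshold on the lower side (edgeR adjusted p = 0.0265, 0.0265 and 0.0284). On the higher side Evi5 was past it (edgeR adjusted p = 0.0430) and Sdcbp was not (0.0607), and both passed the read filter through the crush libraries alone.

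On the other side, several circRNAs were higher in both crush libraries without passing the test. Wsb1, the gene of a substrate receptor of a ubiquitin ligase, had 50 and 27 reads in crushed nerve and 12 and 14 in sham nerve (log2 change 1.77 ± 0.51, edgeR adjusted p = 0.0925, and 0.0355 without sham replicate 2). Cdyl, which encodes a chromodomain co-repressor, had 18 and 37 reads in crushed nerve and 7 and 10 in sham nerve (log2 change 1.88 ± 0.57, edgeR adjusted p = 0.103, and 0.0299 without sham replicate 2). Evi5, the gene of a Rab GTPase-activating protein, had 9 and 6 reads in crushed nerve and 0 in both sham libraries (edgeR adjusted p = 0.0550, and 0.0348 without sham replicate 1). The groups of these 3 did not overlap. Evi5 passed the read filter through the crush libraries alone, so its order and p-values are no support. With a library left out, each passed the threshold in the run named here alone, and not in the others that could be fitted.

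The remaining abundant ones overlapped between the groups or rested on a single library. Hipk3, a kinase gene known for an abundant circRNA of its large second exon, had 19 and 32 reads in crushed nerve and 28 and 28 in sham nerve at a span of 1098 bases (log2 change 0.08 ± 0.44, edgeR adjusted p = 0.949). The sign turned to -0.36 under SRPBM totals. A shorter Hipk3 circRNA of 539 bases with the same end on chromosome 3 (94398038) had 5 and 4 reads in crushed nerve and 0 in both sham libraries, too few for the test. Gdi2, which encodes a Rab GDP dissociation inhibitor, had 13 and 30 reads in crushed nerve and 10 and 15 in sham nerve (log2 change 0.97 ± 0.60, edgeR adjusted p = 0.386).

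Irak3, whose product restrains Toll-like receptor signalling, had 39 and 33 reads after crush, 0 in sham replicate 1 and 33 in sham replicate 2 (edgeR adjusted p = 0.668). Pwwp2a, the gene of a chromatin protein that binds the histone variant H2A.Z, had 30 and 29 after crush, 0 in sham replicate 1 and 35 in sham replicate 2 (edgeR adjusted p = 0.806). Without sham replicate 2 both would have been called higher (adjusted p of 4.10e-07 and 2.29e-06 from edgeR), so the call turned on which sham library was used. Without sham replicate 1 the log2 change of Pwwp2a was -0.18.

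**Figure D4:**
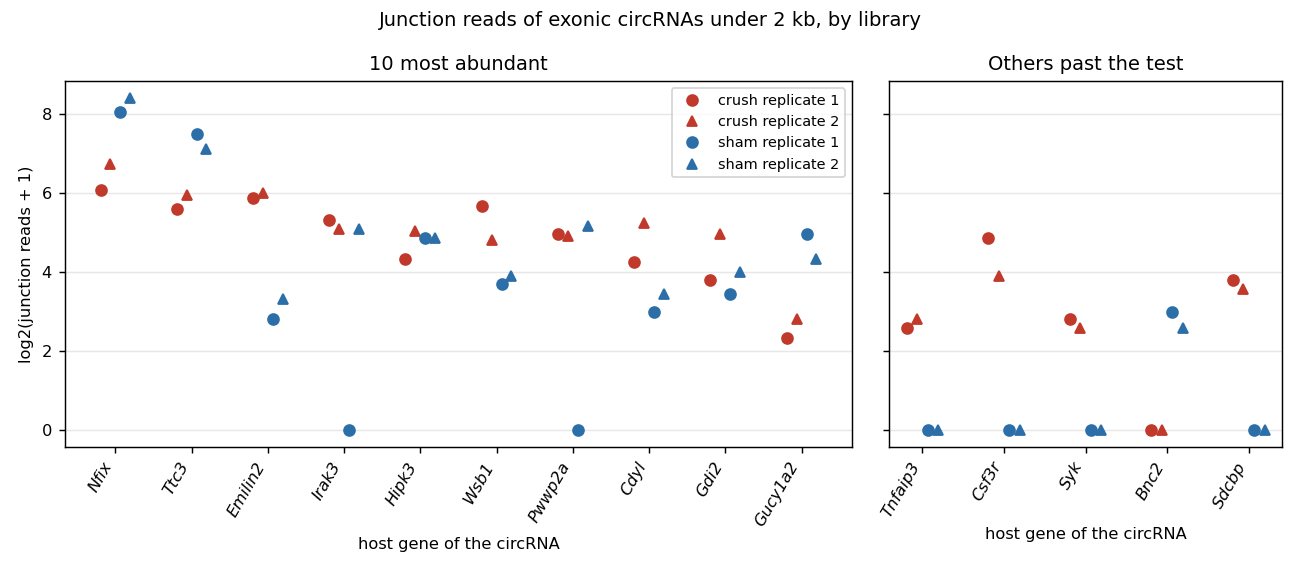
Junction reads, as log2(reads + 1), of the 10 most abundant exonic circRNAs under 2 kb (left panel) and of the other 5 past the edgeR test (right panel), by host gene. Each mark is a library, red for crush and blue for sham, circles for replicate 1 and triangles for replicate 2; Emilin2 shows both crush libraries above both sham libraries, Nfix and Ttc3 the reverse, and Irak3 and Pwwp2a have sham replicate 1 alone at 0.

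Junction reads summed over all circRNAs of a host called Emilin2, Csf3r and Sdcbp again, and Nfix and Ttc3 in addition. Of the 544 hosts, 137 had enough reads, and edgeR's test called 3 higher and 2 lower after crush. Over the 434 hosts tested, 1.84% were called higher and 0.461% lower. Emilin2 had 58 and 67 reads in crushed nerve and 6 and 9 in sham nerve (log2 change 3.24 ± 0.44, edgeR adjusted p = 0.0358). Nfix had 67 and 106 reads in crushed nerve and 265 and 348 in sham nerve, and fell by 1.63 ± 0.29 on the log2 scale (edgeR adjusted p = 0.0490). Ttc3 had 61 and 79 reads in crushed nerve and 230 and 186 in sham nerve, and fell by 1.36 ± 0.24 on the log2 scale (edgeR adjusted p = 0.0490). Sdcbp, with 15 and 25 reads after crush, and Csf3r, with 28 and 16, were at 0 after sham operation and also passed (edgeR adjusted p = 0.0490). Both hosts passed the read filter through the crush libraries alone, so their calls are no further support. Syk (edgeR adjusted p = 0.0573), Tnfaip3 (0.0836) and Bnc2 (0.0836), called as circRNAs, were not called as hosts, although the host sums of Tnfaip3 and Bnc2 are the reads of a single circRNA. Without crush replicate 2 none of the 3 that could still be tested passed (edgeR adjusted p = 0.178 for Emilin2, Nfix and Ttc3). Without crush replicate 1, Emilin2 passed (0.0104), while Nfix (0.184) and Ttc3 (0.241) did not. For Nfix the short circRNA held 99.0% of the host's reads, for Emilin2 97.1% and for Ttc3 76.4%. The short circRNAs of Csf3r held 100% of its reads and those of Sdcbp 72.5%. The host sums of these genes are thus largely the same reads as the circRNA counts.

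The short circRNAs seen in all 4 libraries numbered 40, from 39 hosts, and had 2 to 340 reads per library. Both crush libraries were above both sham libraries for 7 of them, below for 10, and the groups overlapped for 23. Over all 303 circRNAs listed in 4 libraries, 14.2% were above and 27.7% below. Together these 40 had 465 and 561 reads in crushed nerve and 766 and 819 in sham nerve, and without Nfix 398 and 455 against 501 and 479. The order was thus opposite to that of the circRNAs seen in a single library, which held 359 and 367 reads in crushed nerve and 174 and 212 in sham nerve.

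Listing in both libraries of one group and in neither of the other was about as frequent as in the whole catalogue. It held for 29 of the 586 (4.95%) in favour of crush, with 4.51% over all 4942, and for 21 (3.58%) in favour of sham operation, with 3.56% over all. The 29 had a median span of 617 bases and 2 to 28 reads, and 5 of them passed the filter for the test. They included Itgam, which encodes the myeloid integrin CD11b, with 4 and 5 reads after crush. The 21 had a median span of 970 bases and 2 to 7 reads, and 1 passed the filter. They included Robo2, the gene of a Slit receptor that guides axons, with 6 and 4 reads after sham operation, and Mybpc2, a myosin-binding protein gene of fast skeletal muscle, with 2 and 6. Robo2 was named after its values were seen.

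By host gene role, the lists of transcription factors and of ubiquitin enzymes had more reads in both sham libraries through 1 member each. So did the list of genes often reported to give circRNAs, through Nfix. So did, with at most 10 reads per library, the Schwann cell and perineurial lists. Those of matrix, leukocyte, kinase and phosphatase, RNA-binding factor and endothelial genes had more in both crush libraries. The matrix excess came through 1 member, Emilin2, and the endothelial list had 1 member, Flt1. Over circRNAs of any class and span, the 6 endothelial genes with a circRNA summed to 11 and 8 reads in crushed nerve. In sham nerve they summed to 24 and 11, so the endothelial genes as a list were not higher after crush. Transcription factor genes on the list had 12 short circRNAs with 91 and 135 reads in crushed nerve and 279 and 353 in sham nerve, and the Nfix circRNA held most of them. Without it the sums were 24 and 29 with crush against 14 and 13 with sham operation, the opposite order. Of these, 2 were tested, Nfix and Zfp609, and neither passed. Zfp609, a zinc finger gene with a circRNA studied in muscle, had 9 and 7 reads in crushed nerve and 3 and 4 in sham nerve, the opposite order to Nfix. Klf7, which encodes a Krüppel-like factor, had 4 and 5 reads in crushed nerve and 4 and 2 in sham nerve.

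Ubiquitin ligase and deubiquitinase genes had 13 short circRNAs with 73 and 96 reads in crushed nerve and 190 and 150 in sham nerve. Of 4 tested, Tnfaip3 rose and none fell. Tnfaip3 passed the read filter through the crush libraries alone, so that count is no support. Ttc3 held most of these reads, and without it the sums were 26 and 35 with crush against 11 and 12 with sham operation, the opposite order. Fbxw7, a substrate receptor that marks MYC and Notch for degradation, had 16 and 9 reads in crushed nerve and 0 and 3 in sham nerve (edgeR adjusted p = 0.142). Kinase and phosphatase genes had 16, with 63 and 74 reads in crushed nerve and 48 and 45 in sham nerve. Of 3 tested, Syk rose, and it too passed the read filter through the crush libraries alone, so that count is no support. Prkd3, a protein kinase D gene, had 18 and 22 reads in crushed nerve and 8 and 9 in sham nerve (log2 change 1.43 ± 0.44, edgeR adjusted p = 0.104).

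Chromatin regulator genes had 19 short circRNAs with 47 and 25 reads in crushed nerve and 25 and 14 in sham nerve, and neither of the 2 tested passed. Rere, a co-repressor gene, had 9 and 3 reads in crushed nerve and 6 and 4 in sham nerve. Hdac4, a histone deacetylase gene, had 6 and 0 in crushed nerve and 10 and 4 in sham nerve, and one of Crebbp had 4 and 13 in crushed nerve and 2 and 0 in sham nerve. Genes of RNA-binding, splicing and translation factors had only 6, with 8 and 10 reads in crushed nerve and 6 and 0 in sham nerve, and none was tested. The most abundant of these came from Rc3h1, whose product roquin-1 destabilises mRNAs, with 4 reads in each replicate 1 library and 0 in each replicate 2 library. Eif4g3, a translation initiation gene, had 4 reads in crush replicate 1 alone.

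Matrix and adhesion genes had 3 short circRNAs, with 64 and 63 reads in crushed nerve and 6 and 9 in sham nerve. Emilin2 held nearly all of them and was the only one tested. Nid1, the basement membrane gene nidogen-1, had 4 reads and Ltbp1, a gene of TGF-beta storage in the matrix, had 2, each in crush replicate 1 alone. Leukocyte genes had 5, from Csf3r, Syk, Itgam and Dock8, and Csf3r and Syk rose. Both passed the read filter through the crush libraries alone, so that count is no support.

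Few short circRNAs came from markers of the other cells of the nerve. Schwann cell and myelin genes had 2, with 4 and 4 reads in crushed nerve and 10 and 7 in sham nerve. They were Ugt8, which makes the galactolipids of myelin, with 4 and 4 in crushed nerve and 8 and 7 in sham nerve (edgeR adjusted p = 0.624), and Adgrg6, a receptor needed for myelination, with 2 reads in sham replicate 1. Skeletal muscle genes had 3, with 0 and 2 reads in crushed nerve and 2 and 8 in sham nerve, from Mybpc2, from Neb with 2 reads in sham replicate 2 and from Ryr1 with 2 in crush replicate 2. Flt1, a vascular endothelial growth factor receptor gene of endothelium, had 8 and 8 reads in crushed nerve and 4 and 0 in sham nerve (edgeR adjusted p = 0.334). Tenm2, on the perineurial and fibroblast list, had 5 reads in all, in the sham libraries. Acly, a gene of fatty acid synthesis on the adipocyte list, had 2, with 3 and 2 reads after crush in one and 2 reads in sham replicate 2 in the other.

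Genes often reported to give circRNAs had 16 short circRNAs here, with 149 and 213 reads in crushed nerve and 330 and 432 in sham nerve. Without Nfix the sums were 82 and 107 with crush against 65 and 92 with sham operation, which overlapped. Of the 7 tested, Bnc2 fell and none rose. Bnc2 passed the read filter through the sham libraries alone, so that count is no support. Of the 7, 4 had a log2 change above 0, and the median of the 7 was 0.08. Nfix, Hipk3 and Cdyl were the 3 most abundant of them, and they went 3 ways, with Nfix lower, Cdyl higher and Hipk3 overlapping between the groups.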

How the data were processed

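Junction reads were measured in 2 crush and 2 sham libraries by total RNA sequencing, with no label on which animal each came from. All p-values therefore reflect the variation among these 4 libraries alone, part of which may be technical. CASAVA 1.8, BWA, edgeR and the build Rnor_6.0 are named, in no order, in the submitters' processing notes, and the sources used here name no circRNA caller. The files hold, per their headers, raw junction read counts deposited by the authors and SRPBM, a signal equal to the count times 1 constant per library (0.0725 and 0.0598 for crush, 0.0729 and 0.0786 for sham replicates 1 and 2). The total behind that constant is not stated.

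Testing used the two-sided quasi-likelihood test of edgeR 4.0.16 in R 4.3.3, on the deposited counts of all circRNAs with at least 5 reads in 2 libraries, with TMM scaling and Benjamini-Hochberg adjustment at 0.05. DESeq2 1.42.0 was an alternative. Values per library were compared by exact permutation tests. The test scripts were tested on simulated data. Members, gene lists and tests were chosen with earlier results of these data known. The text names the 10 most abundant members, members past the test (or the 6 of smallest p in a direction), the 5 hosts with most members, hosts past the test, the extremes of span and up to 3 members per list, of which some are not reported here. Symbols of 544 hosts were updated through RefSeq's GRCr8 gene table, where 512 were current, 25 synonyms and 7 were kept as given. Replicates of a group were not copies, with chi-square per degree of freedom of 2.82 and 3.65.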

Additional observations from a re-analysis of the deposited data

How the results depend on the processing

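The count of 6 short circRNAs past the test changed with the settings. It was 10 with DESeq2's size factors in edgeR, 1 by DESeq2's Wald test (Csf3r, adjusted p = 0.0300), 0 with at least 2 reads required in place of 5 (55 at unadjusted p under 0.05), and 0 when exonic circRNAs alone were fitted (18). Leaving out each library gave 1 to 13. With limits of 1500 and 3000 bases in place of 2000 it was 3 and 12, by construction over other circRNAs. Other filters, SRPBM totals and library sizes over all circRNAs gave 4 to 9. The count of 5 hosts was 0 with DESeq2's size factors, 15 by the Wald test, 0 with at least 2 reads, 17 with at least 10, 16 with no filter and 0 to 36 with a library left out, where 36 was without sham replicate 2. The causes were not tested. The replicate numbers are not said to pair samples, and the deviations of same-numbered libraries correlated at -0.111. With a replicate block the circRNA count was 0 by edgeR (10 at unadjusted p under 0.05, with Emilin2 at an adjusted p of 0.222) and the host count 12, and with the numbers crossed both were 0 (11 and 19 at unadjusted p under 0.05).

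The difference in the number listed, crush minus sham, kept its sign in every alternative tried and was 56.5 to 78.5 with a library left out. The difference in the share of reads turned to -0.060 percentage points below 1500 bases and to -0.455 over circRNAs with at least 5 reads, and ran from -0.499 to 1.50 with a library left out. Of 293 values of single circRNAs and hosts under alternatives, 214 kept direction and call, 54 lost a call, 21 gained one and 4 turned sign, namely Hipk3 (log2 -0.36 with SRPBM totals, and -0.18 to 0.44 with a library left out) and Pwwp2a (-0.18 to 7.95 with a library left out). Library sizes over all circRNAs, the crossed block and the runs without Nfix or the leukocyte list were chosen after seeing the data. With 2 libraries a group and a median of 3 reads per listed circRNA, depth limits most members to being listed or not.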
